A study of Arabidopsis with 36 samples.

Results

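The genes described here encode the nuclear-made proteins of the photosynthetic electron transport chain in Arabidopsis, apart from its light-harvesting antenna. They were listed by locus for the complexes they belong to, with no threshold on measured values but with earlier results of these data known, and number 34 of the 33035 loci in the deposited gene table. They comprise 12 subunits of photosystem I, 14 proteins of photosystem II, 6 electron carriers and 2 subunits of the plastid ATP synthase. All 34 had an entry in the table, and all 34 passed the filter on low values (at least 1 TPM in at least 3 libraries) that left 20171 nuclear genes for testing.

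In the thylakoid membrane, photosystem II uses light to take electrons from water, and its oxygen-evolving proteins (PsbO, PsbP and PsbQ) shelter the manganese cluster where water is split. Electrons then pass through the cytochrome b6f complex, which contains the Rieske protein, to plastocyanin, a small copper protein that carries them to photosystem I. Photosystem I lifts them to ferredoxin, from which ferredoxin-NADP reductase (FNR) makes NADPH, while protons moved across the membrane drive the ATP synthase. The reaction-centre cores of these complexes are encoded in the plastid genome, whereas the proteins described here are translated in the cytosol and imported into the plastid.

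The RNA came from whole seedlings aged 11 days and labelled as mock-treated. The series holds 36 libraries from 4 lines, and the columns of 2 lines could be tied to samples: wild type (Col-2, genotype label WT) and the AtY34 overexpressor. For each line there were 3 libraries of total RNA, 3 of light polysomes and 3 of heavy polysomes, which makes 18 libraries in 6 groups. Polysome profiling separates mRNAs by density, so that those of heavy polysomes carry more ribosomes than those of light polysomes. The labels give neither the promoter of the AtY34 transgene, nor what AtY34 encodes, nor the number of independent transgenic lines or of pooled plants. Libraries of the AtYchF1 overexpressor and the AtYchF1 knockdown mutant were not analysed here, because their table columns matched no single label.

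Levels are given as scaled TPM, that is, the authors' TPM (length-corrected shares of a library) divided by a factor per library that evens out the typical nuclear gene. Sequencing depth cannot be read from TPM and is unknown. A library had 16035 to 19398 loci above 0, and the correlation of log2 values between replicates of a group, across genes, was 0.805 to 0.875. AtYchF1 (AT1G30580), which the series title names, was higher in the AtY34 line in total RNA (203 ± 33.4 against 41.2 ± 9.97 scaled TPM, SD, n = 3; log2 fold change 2.29, limma adjusted p = 1.96e-04), and also in light (2.67, adjusted p = 2.64e-05) and heavy polysomes (2.23, adjusted p = 3.83e-04). Nothing in the labels says if the AtY34 transgene derives from AtYchF1, and an exchange of column names with the AtYchF1 overexpressor was not tested, so every value of the AtY34 line is that of the libraries so labelled. Of 6 green tissue markers (small subunits and activase of Rubisco, antenna proteins and GAPA), the summed level was 20505 to 25399 in total RNA, but 15445 to 20811 in light and only 13707 to 17420 in heavy polysomes. The summed level of 10 root marker genes ran from 39.2 to 100.2, and that of 5 seed storage genes was 71.7, 27.4 and 64.6 in replicate 2 of wild-type total RNA, light and heavy polysomes against 0 to 13.0 in the other libraries. Replicate 2 also had the highest green tissue sum in 6 of the 6 groups, and the members' own sum was lowest in replicate 2 in 4 of the 6.

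The members differed widely in level in total RNA, and TPM, being corrected for length, allow genes to be compared. PSBR, a small photosystem II protein near the oxygen-evolving complex, was the highest at 5837 ± 580 scaled TPM in wild type (SD, n = 3). PSBTN, a small lumenal protein of photosystem II, followed at 2787 ± 319, then PSBX at 2273 ± 168 and PSAD-1 at 2246 ± 201, which differed from each other by less than their spread. The lowest were FNR2 at 57.0 ± 27.3, PPD5 at 39.3 ± 11.3 and PSB28 at 38.2 ± 19.7, whose spreads overlap. Summed over the 34 genes, the members held 4.33% ± 0.213 of nuclear TPM in wild-type total RNA, then 5.03% ± 0.208 in light and then 6.36% ± 0.583 in heavy polysomes (SD, n = 3). Their share in the AtY34 line was 3.96% ± 0.147, 4.87% ± 0.351 and 6.17% ± 0.349. A non-coding RNA, AT1G15405, took 14.9% to 19.9% of all TPM in total RNA libraries and 0.272% to 2.92% in polysome libraries, so shares of total RNA and of polysomes have different denominators. On the scaled level the sum of the 3 fractions was 36199 (total RNA), 30177 (light) and 37149 (heavy polysomes) for wild type, and 33149, 28742 and 34771 in the AtY34 line.

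**Figure D1:**
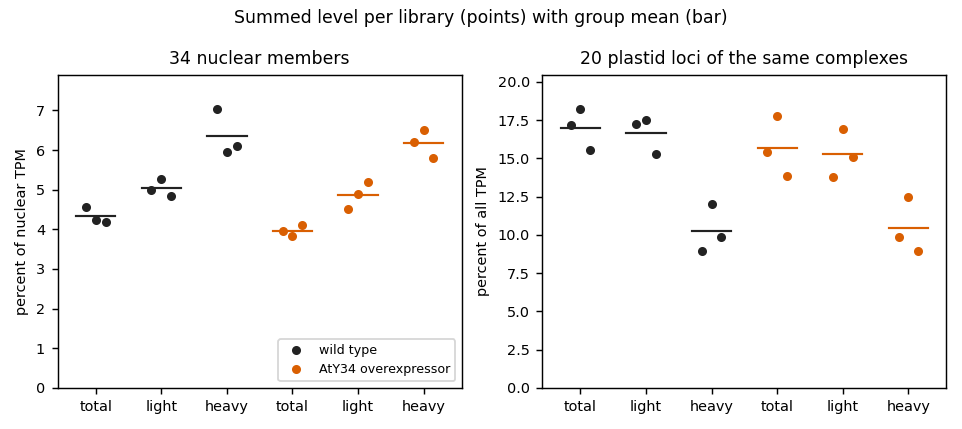
Summed level of the 34 members and of their plastid-encoded partners in each library (points) with the group mean (bar), by line and fraction. As drawn, the members' mean share of nuclear TPM is lowest in total RNA and highest in heavy polysomes of both lines. Their scaled sum, which is not drawn, is lowest in light polysomes. The partners' share of all TPM is lowest in heavy polysomes.

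Heavy and light polysomes were compared to ask which of these mRNAs carry many ribosomes. More members were higher in heavy than in light polysomes than the other way round. The clearest were plastocyanin (DRT112), leaf ferredoxin (FED A), the photosystem II protein PSBY, the ATP synthase delta subunit (ATPD) and the ferredoxin-docking subunit of photosystem I (PSAD-1), each about 1.8-fold to 2.2-fold higher as the mean over both lines. In wild type 5 members passed the threshold as higher (adjusted p under 0.05, limma over all 20171 genes) and 1 as lower, where 0.392% of all tested genes passed as higher and 0.565% as lower. In the AtY34 line 6 members were higher and 0 lower, with a background of 0.263% and 0.416%. Without adjustment 13 members of that line had a limma p under 0.05 as higher (4.69% of all genes) and 0 as lower (7.19%). The mean over both lines, which draws on 12 libraries, gave 12 members higher and 1 lower, against 1.88% and 2.81% of all genes. The counts by line were less firm. Without replicate 2 of every group the count was 2 for wild type and 1 for AtY34. Of all genes 12 then passed as higher and 24 as lower in wild type, and 8 and 30 in the AtY34 line. With only its compared groups in the fit 0 members passed in either line, as did 0 of all 20171 genes. In wild type 3 members passed without light replicate 1. In the AtY34 line 2 or 3 passed without any 1 of its libraries other than heavy replicate 2. In the mean over lines PSAF, PSAK, PSAN, PSBQA, PPD5 and FNR2 each missed the threshold under at least 1 of 19 other settings, and the 7 other called members passed under all 19.

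Most members are abundant, and abundant genes passed more often. Among the 397 genes whose mean over libraries reached 200 scaled TPM, which include 30 of the members, 21.4% passed as higher and 13.6% as lower in the mean over lines. The members' count thus stands further above the background of all genes than above that of genes of like level. With TPM as deposited the median of all genes over both lines moved from -0.06 to 0.05 and the members' median from 0.27 to 0.43. After scaling the members' median log2 fold change was 0.30 in wild type, 0.25 in the AtY34 line and 0.27 over both. In the same order the median was -0.07, -0.04 and -0.06 over all genes, and 0.15, 0.08 and 0.10 over the 397 abundant genes. In the mean over lines 27 of 34 members were above 0, against 9213 of all 20171 genes and 56.9% of the 397. In 14 members all 6 heavy libraries lay above all 6 light libraries, and in 0 members all lay below; of all tested genes 1.86% and 1.82% did so, and of the 397 abundant genes 13.6% lay above.

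**Figure D2:**
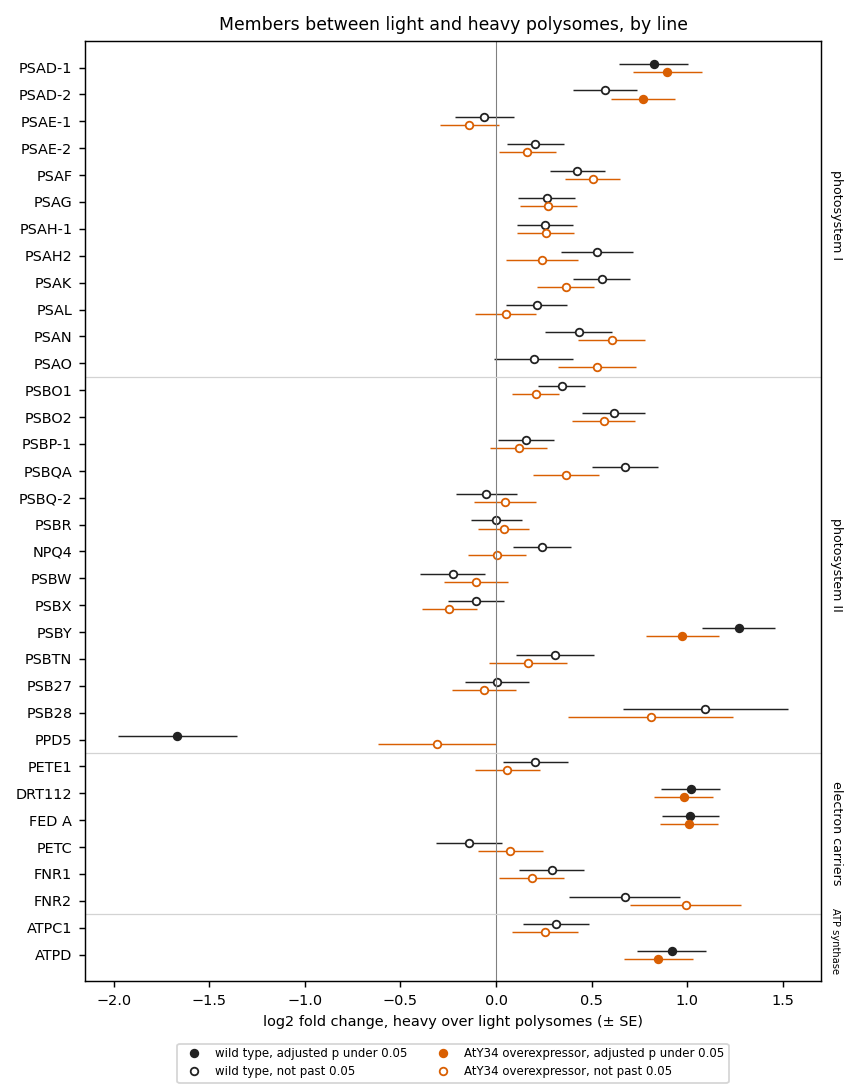
Log2 fold change of each of the 34 members between heavy and light polysomes, with its standard error, by line. Most points lie to the right of 0 in both lines, and PPD5 lies far to the left in wild type with a log2 fold change of -1.67 against -0.31 in the AtY34 line.

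Of the photosystem I subunits 5 of 12 rose from light to heavy polysomes in the mean over lines, 0 fell, and the median log2 fold change was 0.37. PSAD-1 (AT4G02770), a stromal subunit at which ferredoxin docks, stood at 1388, 1529 and 1355 scaled TPM in the 3 wild-type light libraries and at 3103, 2115 and 2430 in the heavy ones. The AtY34 libraries stood at 1463, 1106 and 1380 in light and at 2978, 1929 and 2501 in heavy polysomes. Every heavy library was above every light library, and replicate 2 was the lowest heavy library in each line. The log2 fold change was 0.86 over both lines (SE 0.13, adjusted p = 7.57e-04), 0.82 in wild type (adjusted p = 0.0335) and 0.89 in the AtY34 line (adjusted p = 0.0243).

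Its near relative PSAD-2 (AT1G03130) was less abundant, at 729, 823 and 689 in light against 1429, 964 and 986 in heavy polysomes of wild type. Its AtY34 values were 564, 630 and 665 in light and 1214, 879 and 1101 in heavy polysomes. Heavy replicate 1 was the highest library in each line, and the fractions did not overlap. The log2 fold change over both lines was 0.67 (SE 0.12, adjusted p = 0.00311), and only the AtY34 line passed by itself (0.77, adjusted p = 0.0418, against 0.57 in wild type; the difference between the lines did not pass).

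PSAF, which docks plastocyanin on the lumenal side of photosystem I, was at 552, 572 and 565 in light and 809, 726 and 737 in heavy polysomes of wild type. The AtY34 values were 477, 520 and 564 against 773, 748 and 695. The light libraries of wild type lay close together, all below the lowest heavy library, and the log2 fold change over both lines was 0.47 (SE 0.10, adjusted p = 0.0120). PSAK, a subunit on the side where the antenna binds, was at 1058, 1225 and 1060 in light and 1984, 1370 and 1597 in heavy polysomes of wild type. AtY34 levels were 1036, 1187 and 1248 in light and 1605, 1386 and 1474 in heavy polysomes. The fractions were again apart, by a log2 fold change of 0.46 (SE 0.11, adjusted p = 0.0178).

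PSAN, a lumenal subunit, was at 688, 657 and 563 in light and 1062, 796 and 740 in heavy polysomes of wild type, and at 457, 653 and 626 against 905, 933 and 779 in the AtY34 line. The gap between the fractions was narrow in wild type, from 688 to 740, and the log2 fold change over both lines was 0.52 (SE 0.12, adjusted p = 0.0222). The other 7 subunits did not pass. PSAH2 (0.38), PSAO (0.36), PSAG (0.27) and PSAH-1 (0.26) had positive log2 fold changes, as did PSAE-2 (0.18) and PSAL (0.13), and PSAE-1 was at -0.10 with an SE of 0.11. PSAH and PSAO take part in docking the mobile antenna, and PSAE binds ferredoxin together with PSAD.

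Of the 5 oxygen-evolving proteins 2 rose, 0 fell, and the median log2 fold change was 0.28. PSBO2, the less abundant of the 2 PsbO proteins that hold the manganese cluster in place, was at 406, 554 and 460 in light and 763, 697 and 701 in heavy polysomes of wild type. AtY34 levels were 483, 509 and 443 in light and 841, 595 and 705 in heavy polysomes. Light replicate 2 of wild type was the highest light library at 554 and still under the lowest heavy one at 595; the log2 fold change over both lines was 0.59 (SE 0.12, adjusted p = 0.00684). PSBQA was at 483, 466 and 500 in light and 820, 636 and 880 in heavy polysomes of wild type, and at 542, 477 and 559 against 758, 606 and 675 in the AtY34 line. The wild-type fractions lay further apart than the AtY34 ones (log2 fold change 0.67 and 0.37), which was not a difference past the threshold, and the value over both lines was 0.52 (SE 0.12, adjusted p = 0.0199). PSBO1 (0.28, adjusted p = 0.0831) had all heavy libraries above all light ones but did not pass, PSBP-1 was at 0.14 and PSBQ-2 at 0.00 with an SE of 0.11.

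The 9 other photosystem II proteins split more evenly: 1 rose, 1 fell, 5 of 9 were above 0, and the median log2 fold change was 0.02. PSBY, a small membrane protein of photosystem II, was at 413, 505 and 482 in light and 1240, 955 and 1192 in heavy polysomes of wild type. The AtY34 libraries were at 587, 505 and 464 in light and 1270, 766 and 1076 in heavy polysomes. Heavy replicate 2 was the lowest heavy library in both lines, and even there PSBY exceeded every light library. Its log2 fold change was the highest among the members in the mean over lines at 1.12 (SE 0.13, adjusted p = 1.22e-04), with 1.27 in wild type (adjusted p = 0.00314) and 0.97 in the AtY34 line (adjusted p = 0.0211).

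The other way in wild type went PPD5, a lumenal PsbP-like protein. There it was at 34.7, 27.2 and 25.1 in light polysomes, at 8.82, 8.80 and 7.55 in heavy polysomes and at 26.4, 47.2 and 44.4 in total RNA. Its AtY34 levels were 24.4, 22.9 and 33.5 in light, 16.1, 24.3 and 24.5 in heavy polysomes and 16.4, 27.3 and 34.3 in total RNA. The wild-type heavy libraries were the 3 lowest of all 18, whereas the AtY34 fractions overlapped. The log2 fold change from light to heavy polysomes was -1.67 in wild type (adjusted p = 0.0138) and -0.99 over both lines (SE 0.22, adjusted p = 0.0138), and from total RNA to heavy polysomes it was -2.06 in wild type (adjusted p = 0.00696). Without replicate 2 of every group neither wild-type call passed. The line difference in the heavy-to-light change was 1.36 (SE 0.44, unadjusted p = 0.00625 by limma) and did not pass over all genes (adjusted p = 1).

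The remaining photosystem II proteins did not pass. PSBR, the most abundant member, was nearly level between the fractions (5873 ± 373 in light and 5878 ± 314 in heavy polysomes of wild type, n = 3; log2 fold change over both lines 0.02, 95% interval -0.18 to 0.22). PSBX was at -0.18, PSBW at -0.17 and PSB27, an assembly factor, at -0.03. NPQ4, the PsbS protein that triggers dissipation of excess light, was at 0.12 and PSBTN at 0.24. PSB28, an assembly factor, was at 35.7, 28.1 and 8.72 in light and 43.4, 43.7 and 50.1 in heavy polysomes of wild type, and at 28.6, 22.3 and 27.7 against 45.4, 51.1 and 43.0 in the AtY34 line. No light library reached the lowest heavy one, but at these low levels the log2 fold change of 0.95 had an SE of 0.30 and missed the threshold (adjusted p = 0.0877).

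Among the 6 electron carriers 3 rose, 0 fell, and the median log2 fold change was 0.54. DRT112 (AT1G20340), the more abundant plastocyanin, was at 771, 888 and 749 in light and 1899, 1380 and 1633 in heavy polysomes of wild type. For the AtY34 line the values were 775, 722 and 868 in light and 1658, 1471 and 1534 in heavy polysomes. The lowest heavy library (1380) was far above the highest light library (888), and the lines ran alike, with log2 fold changes of 1.02 in wild type (adjusted p = 0.00330) and 0.98 in the AtY34 line (adjusted p = 0.00602). Over both lines the value was 1.0 (SE 0.11, adjusted p = 4.65e-05).

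FED A (AT1G60950), the main leaf ferredoxin, which hands electrons from photosystem I to FNR, was at 500, 467 and 554 in light and 1172, 910 and 1008 in heavy polysomes of wild type. The AtY34 libraries held 432, 439 and 525 in light and 1064, 912 and 841 in heavy polysomes. All heavy libraries lay above all light ones, and the log2 fold change was 1.01 over both lines (SE 0.11, adjusted p = 3.21e-05), 1.02 in wild type (adjusted p = 0.00288) and 1.01 in the AtY34 line (adjusted p = 0.00416). FNR2, 1 of the 2 leaf reductases, was at 52.3, 56.8 and 51.3 in light and 89.5, 93.6 and 75.2 in heavy polysomes of wild type, and at 23.9, 45.7 and 49.8 against 73.9, 70.3 and 86.0 in the AtY34 line. Light replicate 1 of the AtY34 line was low at 23.9; the fractions did not overlap, and the log2 fold change over both lines was 0.83 (SE 0.21, adjusted p = 0.0264). The call rested on few libraries: it was lost in 6 of the 12 fits that left out 1 library. FNR1 (0.24), the second plastocyanin PETE1 (0.13) and the Rieske protein PETC (-0.03) did not pass.

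**Figure D3:**
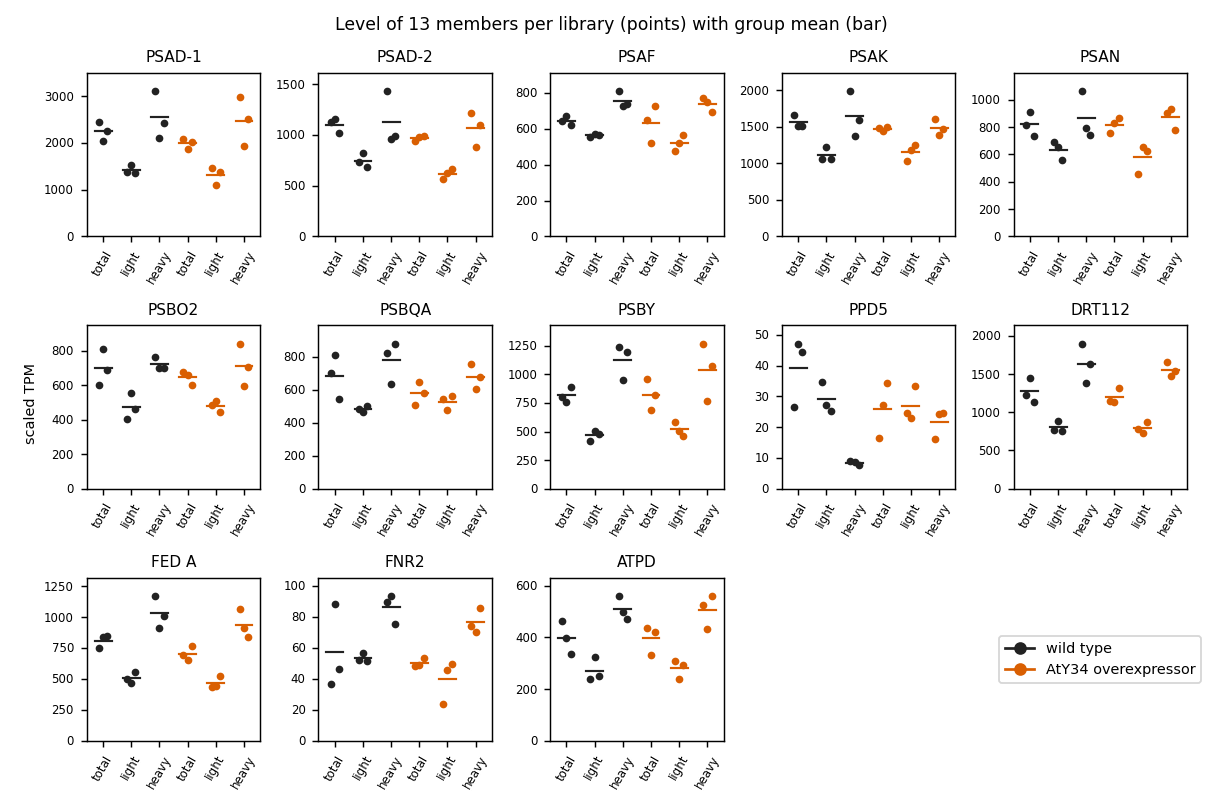
Scaled TPM of 13 members in each of the 18 libraries (points) with the group mean (bar), by line and fraction, each panel with its own axis from 0. DRT112, FED A, PSBY and PSAD-1 sit higher in every heavy than in every light library, while PPD5 is lowest in the wild-type heavy libraries.

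Of the ATP synthase subunits, ATPD, the delta subunit that joins the catalytic head to the membrane part, was at 239, 323 and 251 in light and 561, 498 and 472 in heavy polysomes of wild type. Its AtY34 values were 308, 241 and 294 in light and 527, 434 and 559 in heavy polysomes. The fractions were apart by more than the spread of either, with a log2 fold change of 0.88 over both lines (SE 0.13, adjusted p = 6.12e-04), 0.92 in wild type (adjusted p = 0.0186) and 0.85 in the AtY34 line (adjusted p = 0.0354). ATPC1, the gamma subunit that turns inside the head, had a log2 fold change of 0.29 (SE 0.12, adjusted p = 0.228) and did not pass.

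Across the 34 members the heavy-to-light changes of the 2 lines correlated with Pearson's r of 0.832 and Spearman's rho of 0.903, and 31 had the same sign. Without PPD5 r was 0.902 and rho 0.893 over 33 members. These correlations are across genes, which are not independent replicates and share libraries within each line; the 2 lines share no library. No member passed the test of a line difference in the heavy-to-light change (limma, 0 of 34), where 0% of all genes passed in either direction. Without adjustment 1 member, PPD5, had a p under 0.05 as higher (1.92% of all genes) and 0 as lower (1.51%).

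The 7 pairs of related genes were compared within each library, where the ratio of their TPM does not depend on the scaling. Near-identical coding sequences can share reads, so how the authors' quantification split them is uncertain, and shared reads would pull a ratio in an unknown way. DRT112 exceeded its relative PETE1 by 2.26 to 3.20 times in light polysomes, by 4.27 to 5.44 times in heavy polysomes and by 3.68 to 5.93 times in total RNA. No heavy library overlapped a light one, and the log2 ratio differed by 0.87 between the fractions (two-sided exact permutation test within lines, p = 0.005, the smallest that 400 permutations can give; 0.00875 adjusted over the 7 pairs). PETE1 itself was at 282 ± 29.3 in light and 325 ± 22.7 in heavy polysomes of wild type (SD, n = 3), and at 310 ± 35.4 and 325 ± 55.8 in the AtY34 line.

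FNR2 was less abundant than FNR1 in every library, at 0.170 to 0.345 of its TPM in light and 0.396 to 0.492 in heavy polysomes. The log2 ratio rose by 0.61 (exact permutation p = 0.005, adjusted 0.00875). FNR1 was at 161 ± 4.00 in light and 198 ± 27.8 in heavy polysomes of wild type, and at 152 ± 13.2 and 174 ± 22.3 in the AtY34 line. The ratio of PSBO2 to PSBO1 was 0.319 to 0.367 in light and 0.362 to 0.526 in heavy polysomes, ranges that overlap slightly, with a log2 difference of 0.31 (exact permutation p = 0.005, adjusted 0.00875). PSBO1 was at 1380 ± 120 in light and 1746 ± 19.7 in heavy polysomes of wild type, and at 1399.6 ± 86.9 and 1615 ± 26.5 in the AtY34 line.

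The ratio of PSBQA to PSBQ-2 was 0.956 to 1.19 in light and 1.56 to 1.87 in heavy polysomes of wild type, and 1.30 to 1.51 against 1.44 to 2.14 in the AtY34 line. Its log2 value differed by 0.52 over both lines (exact permutation p = 0.015, adjusted 0.021), with no overlap in wild type and an overlap in the AtY34 line. PSBQ-2 was at 456 ± 43.8 and 439 ± 32.6 in light and heavy polysomes of wild type, and at 368 ± 10.2 and 381 ± 35.9 in the AtY34 line.

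The PSAE pair went the other way, with PSAE-1 at 2.67 to 3.22 times PSAE-2 in light and 2.31 to 2.58 times in heavy polysomes, a log2 difference of -0.29 (exact permutation p = 0.005, adjusted 0.00875). PSAE-1 was at 1377 ± 142 in light and 1324 ± 189 in heavy polysomes of wild type and at 1244 ± 93.9 and 1133 ± 134 in the AtY34 line, while PSAE-2 was at 457 ± 16.5 and 530 ± 76.5 and at 432 ± 35.1 and 485 ± 55.4. For PSAD the log2 difference was 0.19 (exact permutation p = 0.07, adjusted 0.0817) and for PSAH -0.13 (p = 0.49), so neither passed. PSAH-1 was at 758 ± 38.1 and 912 ± 140 in light and heavy polysomes of wild type and at 707 ± 80.1 and 844 ± 52.2 in the AtY34 line, and PSAH2 at 441 ± 50.3 and 637 ± 87.6 and at 411 ± 113 and 473 ± 11.4.

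**Figure D4:**
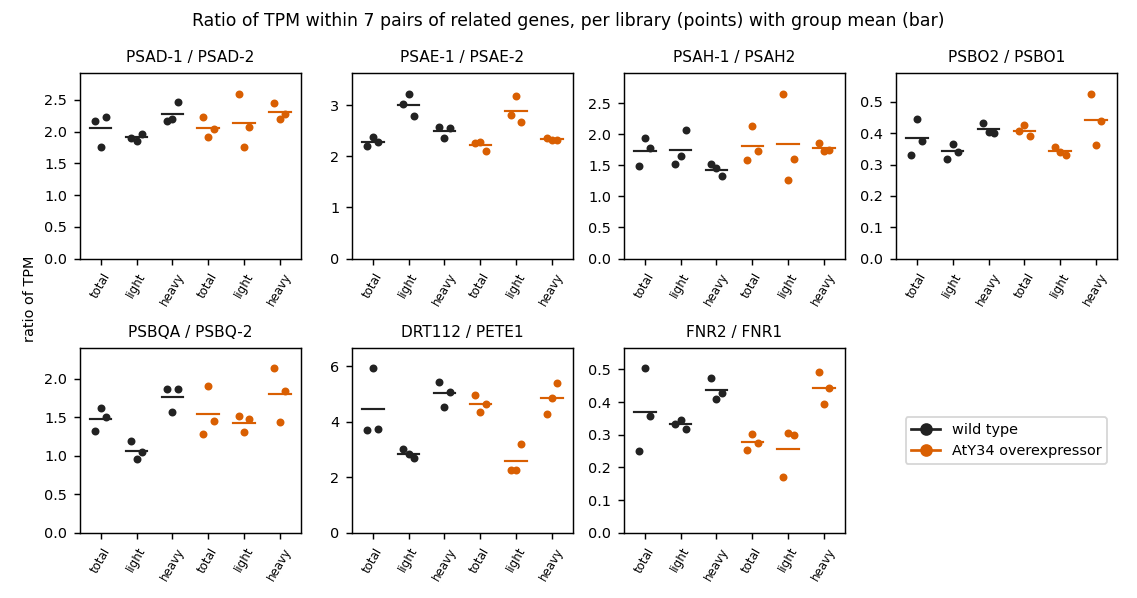
Ratio of TPM within 7 pairs of related members in each library (points) with the group mean (bar), by line and fraction. The DRT112 to PETE1 ratio is 2.26 to 3.20 in light polysomes and 4.27 to 5.44 in heavy polysomes, with no overlap.

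Light polysomes were also compared with total RNA. In the mean over lines 6 members were lower in light polysomes and 0 higher, where 0.223% of all genes passed as lower and 0.243% as higher, and 6.05% of the 397 abundant genes passed as lower. Beside them the 6 green tissue markers were all below 0 (median log2 fold change -0.28; 5 of 6 above 0 with TPM as deposited), and CAB1, an antenna protein, passed as lower (-0.70, adjusted p = 0.0199); the part of this shift in the members' values was not tested. FED A fell by 0.64 on the log2 scale (adjusted p = 0.0100), from 746, 837 and 843 in wild-type total RNA and 696, 654 and 764 in AtY34 total RNA to the light-polysome levels given above. DRT112 fell by 0.63 (adjusted p = 0.0121), with 1226, 1453 and 1138 in total RNA of wild type and 1141, 1139 and 1312 in that of the AtY34 line. For both genes every total RNA library lay above every light library, and the highest total RNA library (843 for FED A, 1453 for DRT112) slightly exceeded the lowest heavy one (841 and 1380).

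PSBY fell by 0.73 (adjusted p = 0.0199), from 804, 756 and 888 in wild-type and 964, 690 and 817 in AtY34 total RNA. PSAD-1 fell by 0.63 (adjusted p = 0.0342), from 2442, 2041 and 2257 and from 2092, 1867 and 2027, and PSAD-2 by 0.60 (adjusted p = 0.0320), from 1124, 1158 and 1015 and from 939, 980 and 994. For these 3 genes every total RNA library was above every light library. PSAG, a membrane subunit of photosystem I, fell by 0.48 (adjusted p = 0.0493), from 1614, 1503 and 1530 in wild-type and 1530, 1268 and 1368 in AtY34 total RNA to 955, 1212 and 1021 and to 982, 1175 and 965 in light polysomes. Its heavy-polysome levels, 1276, 1282 and 1251 in wild type and 1428, 1076 and 1279 in the AtY34 line, lay between in wild type and overlapped both in the AtY34 line. For each line alone, 0 members passed in wild type (background 0.0545% higher, 0.0496% lower) and 0 in the AtY34 line (0.0644% and 0.0446%) by limma. An unadjusted p under 0.05 was reached by 14 members in wild type and 11 in AtY34, all as lower, against 3.23% and 3.08% of all genes.

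These calls against total RNA depend on the scaling. Between light polysomes and total RNA in wild type, the typical gene moved by 0.45 (median) in TPM as deposited. After scaling it moved by 0.11. The members' median was 0.08 and -0.37, in both lower than the typical gene. Abundant genes moved the same way after scaling. Over both lines the members' median was then -0.24 with 7 of 34 above 0, and that of the 397 abundant genes was -0.19 with 29% above 0. In the mean of the lines 0 of the 6 passed with TPM as deposited, where 7 members passed as higher instead. Of all 20171 genes 1153 then passed as higher, against 49 after scaling. With quantile normalization 1 member passed, where 31 of all genes were higher and 25 lower. Without any 1 library other than light replicate 2 of wild type, 2 to 4 passed.

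Heavy polysomes and total RNA differed less for these genes. In wild type 0 members were higher and 1, PPD5, was lower, against 0.00496% and 0.124% of all genes. By limma 0 members passed in the AtY34 line (background 0.00496% and 0.0595%), where 3 had an unadjusted p under 0.05 as higher (4.16% of all genes) and 0 as lower (4.72%). With the lines averaged 0 were higher and 1 lower, again PPD5 (log2 fold change -1.14, adjusted p = 0.0152), against 0.154% and 0.798% of all genes. Their median log2 fold change was 0.06 in wild type, 0.10 for AtY34 and 0.09 in the mean of the lines. With TPM as deposited 20 members passed as higher in wild type, 22 for AtY34 and 31 in the mean. Of all 20171 genes 763, 696 and 3494 did so in turn, against 1, 1 and 31 after scaling. The typical gene moved by 0.52 in wild type (0.05 after scaling), so direction against total RNA is given only relative to the typical gene. Over both lines the 6 green tissue markers were all below 0 (median -0.61; 3 of 6 with TPM as deposited), and CAB1, CAB2, GAPA and RBCS2B passed as lower.

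**Figure D5:**
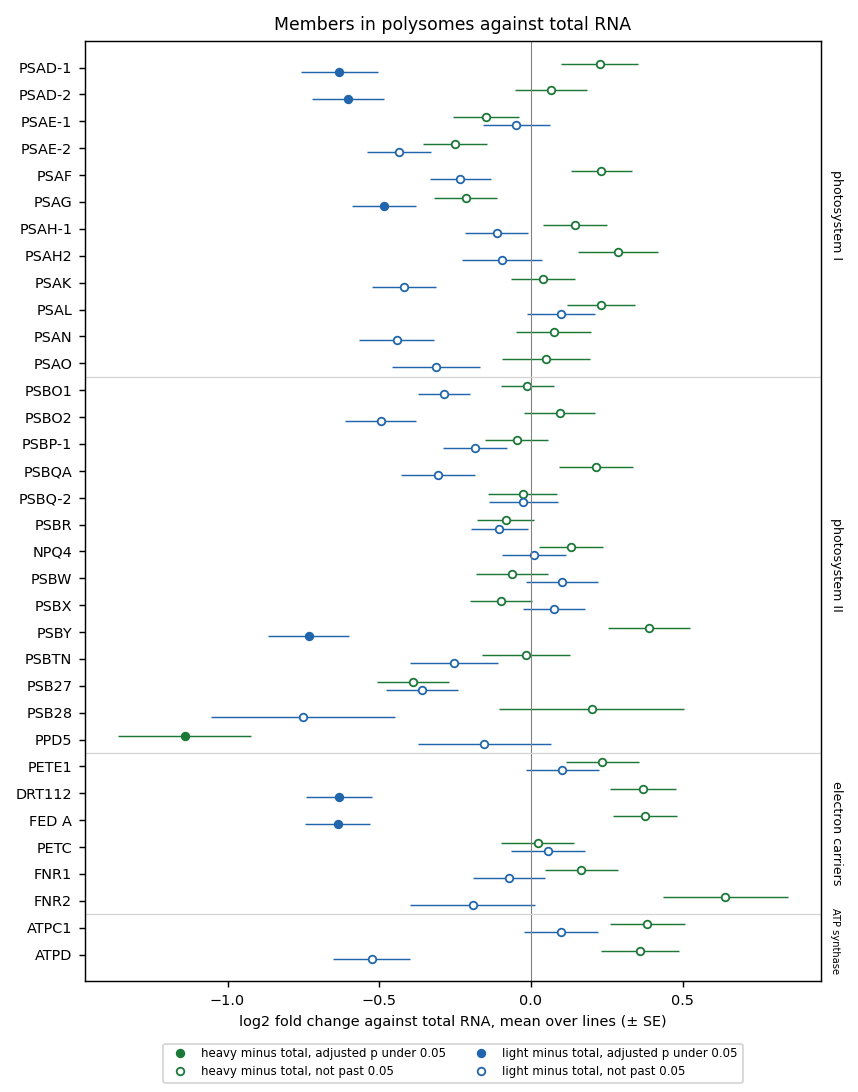
Log2 fold change of each member in light and in heavy polysomes against total RNA, as the mean over both lines with its standard error. After scaling, light-polysome points lie mostly below 0 (27 of 34) and heavy-polysome points mostly above (22 of 34), with PPD5 at -1.14 in heavy polysomes; with TPM as deposited 25 of the 34 light-polysome values lie above 0.

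The AtY34 overexpressor was compared with wild type to ask whether these mRNAs change with the transgene. No member passed in any of the 3 fractions (limma, 0 of 34 each), where 0.0248%, 0.00496% and 0.00496% of all genes passed as higher and 0.0545%, 0.0297% and 0.0149% as lower (total RNA, light and heavy polysomes in turn). Without adjustment 1 member had a limma p under 0.05 in total RNA, PSBX at -0.41 (adjusted p = 0.483), where 4.34% of all genes did so as higher and 3.78% as lower. In light polysomes 0 members did so, against 2.02% and 2.56% of all genes. In heavy polysomes PSAH2 did so at -0.42 (adjusted p = 1) and PPD5 at 1.25 (adjusted p = 0.711), against 2.38% of all genes as lower and 2.08% as higher. In total RNA 29 of 34 members had a log2 fold change below 0, with a median log2 fold change of -0.13, where 9986 of the 20171 tested genes were below 0. The members above 0 numbered 5 here, 9 with TPM as deposited, 11 with quantile normalization and 12 without replicate 2 of every group; the median was -0.05 in light and -0.07 in heavy polysomes. Leaving out PPD5, PSB28 and FNR2, whose low levels gave wide errors, the 95% intervals of the other 31 members ran no further than -0.78 to 0.63 in total RNA, -0.64 to 0.59 in light and -0.81 to 0.59 in heavy polysomes. The line difference in the change from total RNA to heavy polysomes passed for 0 of 34 members (limma; background 0% as higher and 0.00496% as lower), with 1 member, PPD5, at an unadjusted limma p of 5.44e-04 (difference 1.84, adjusted p = 0.727). Of all genes 2.43% as higher and 2.63% as lower had an unadjusted p under 0.05 there.

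The wider pathway was read from 53 other nuclear genes of electron transport and photosystem assembly, all 53 of which were tested. From light to heavy polysomes 3 rose and 4 fell in the mean over lines, with a median log2 fold change of -0.12 and 23 of 53 above 0. Of all tested genes 1.88% passed as higher and 2.81% as lower. Among genes whose mean reached 20 scaled TPM, 7.09% passed as higher and 8.65% as lower. The counts thus lie above the share of all genes and near that of genes reaching 20. Neither background is matched to this list in level. With TPM as deposited 4 rose, 1 fell and the median was 0.04. Of all genes 675 then passed as higher and 406 as lower, with a median of 0.05. These genes are less abundant than the members, with 37 of 53 at a mean of 20 or more and 4 at 200 or more, against 34 and 30 of 34, and the 2 lists were not compared at matched level. Tic62, which tethers FNR to membranes, rose by 1.07 (adjusted p = 0.00137), from 14.5 ± 2.19 to 29.7 ± 6.08 scaled TPM in wild type (SD, n = 3). AT2G31040 (CGL160), an assembly factor of the ATP synthase, rose by 1.0 (adjusted p = 0.0230), from 13.1 ± 0.827 to 27.2 ± 9.42. FD1, the minor leaf ferredoxin, rose by 0.67 (adjusted p = 0.0338), from 273 ± 64.9 to 424 ± 62.2.

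Of the 4 that fell, NdhL, a subunit of the plastid NDH complex for cyclic electron flow, fell by 1.53 (adjusted p = 1.87e-04), from 176 ± 28.4 in light to 68.2 ± 29.1 in heavy polysomes of wild type. PGR5, needed for the other cyclic route around photosystem I, fell by 1.03 (adjusted p = 0.0129), from 104 ± 13.1 to 47.7 ± 19.9, and its partner PGR5-LIKE A fell by 0.70 (adjusted p = 0.0234), from 183 ± 32.2 to 106 ± 7.66. CEST fell by 1.0 (adjusted p = 0.0306), from 44.8 ± 1.39 to 20.7 ± 3.66. The small cytochrome b6f subunit encoded by AT2G26500 (PetM) was at -0.39 (SE 0.13, adjusted p = 0.111) and PDE334, the CF0-II subunit of the ATP synthase, at 0.03 (SE 0.12, adjusted p = 0.933), and neither passed. Against total RNA, Tic62 was also lower in light polysomes (-0.81, adjusted p = 0.0413).

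The plastid-encoded partners of the same complexes, 20 loci, took 17.0% of all TPM in wild-type total RNA, with 16.7% in light and 10.3% in heavy polysomes, and 15.7%, 15.3% and 10.4% in the AtY34 line. Every heavy library (8.91% to 12.5%) was below every light or total RNA library (13.8% to 18.2%). Plastid mRNAs are translated on plastid ribosomes, and these shares are of all TPM and were not tested.

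Other markers moved between the fractions alongside the members. The 6 green tissue markers were all below 0 from light to heavy polysomes in the mean over lines, with RBCS2B, a Rubisco small subunit, past the threshold (log2 fold change -0.48, adjusted p = 0.0107); with TPM as deposited 5 of the 6 were below 0 and 0 passed. Of the 9 root markers tested all 9 were above 0 and CASP1 passed (1.10, adjusted p = 0.0238); their summed level was 44.7 to 82.7 in light and 75.1 to 100.2 in heavy polysomes. These shifts are between polysome fractions, so they do not by themselves measure cell numbers. Between lines or replicates of such bulk samples, fewer cells of a type and less RNA per cell cannot be told apart. The part of these marker shifts in the members' values was not tested. Replicate 2 was the library number in which wild-type seed storage transcripts were high. Without it in every group, 9 members passed as higher in heavy than in light polysomes over both lines and 0 as lower. Of all 20171 genes 184 then passed as higher and 264 as lower, against 379 and 566 with every library.

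Isoform choice added little to these values. Of the 34 members 26 have 1 transcript in the deposited transcript table, 7 have 2 and 1 has 3, and in the 8 with more than 1 the leading transcript held at least 98.3% of the gene's TPM in every library.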

How the data were processed

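Stranded libraries were built from rRNA-depleted RNA, per the labels' protocols. The authors deposited TPM for genes and for transcripts. FastQC, MultiQC and STAR and the TAIR10 build are named, without versions, per the submitters' processing notes. The deposited TPM carry the name of Salmon, a quantification program, also without a version. Other quantification steps are not given in the sources used here. The members and gene lists were chosen with earlier results of these data known, and the ratios of related genes were added after the data were seen.

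Columns were tied to samples by name; 18 gene-level and 54 transcript-level columns matched no single label and were not used. Nuclear TPM were divided by a size factor per library, a median of ratios to geometric means over 9431 genes present in all 18 libraries (factors 0.761 to 1.44). limma 3.58.1 (R 4.3.3) was run on log2(scaled TPM + 1), with a mean-dependent prior, 1 mean per group and 12 residual degrees of freedom, over 20171 nuclear genes (at least 1 TPM in at least 3 libraries). This scale understates changes of low genes. P-values were two-sided and adjusted by Benjamini-Hochberg within each of 14 comparisons (threshold 0.05). The mean over lines weights both lines equally. Ratios were tested by exact permutation of fraction labels within lines (Python 3.11.15, numpy 2.4.6). The libraries of a line were permuted freely, not paired by replicate number, and a paired test was not run. These p-values thus take libraries under the same number as independent. The limma fit was run on simulated log2 values for heavy against light polysomes of wild type. The scaling and the permutation test were not run on simulated data.

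Values in every library are given for each member past the threshold in any comparison (PSB28 was added after its values were seen), group means for pairs of related genes, and other pathway genes only if past the threshold or fixed by name. All 34 members matched the TAIR10.1 gene table from RefSeq, which gave symbols. Depth is unknown, so no interval from counts is given. Whether replicates are separate cultures is not in the labels, and p-values reflect only the spread between these libraries, possibly technical; 0 of 153 library pairs held identical values. Alternatives were TPM as deposited, quantile normalization, another pseudocount, no filter, a replicate block, only the groups compared, and leaving out libraries.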

Additional observations from a re-analysis of the deposited data

How the results depend on the processing

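The count of members past the threshold between heavy and light polysomes over both lines stayed within 1.5 times of 13 under every setting tried. It ran from 9 to 18, and from 11 to 14 with 1 library left out. TPM as deposited gave the 18. Quantile normalization gave 9, as did leaving out replicate 2 in all groups, a setting chosen after seeing the data. Of all 20171 genes 379 passed as higher and 566 as lower in the main fit. These were 675 and 406 with TPM as deposited, 561 and 463 with quantile normalization, and 184 and 264 without replicate 2. PSAD-1, PSAD-2, PSBO2, PSBY, DRT112, FED A and ATPD passed in all 19 settings; PSAF, PSAK, PSAN, PSBQA, PPD5 and FNR2 each missed in at least 1. By line the calls were less firm. In wild type 79 of all genes passed as higher and 114 as lower, and 179 and 95 with TPM as deposited. Without replicate 2 these were 12 and 24 in wild type, and 8 and 30 in the AtY34 line (main 53 and 84). With only the groups compared 0 of all genes passed in either line. In wild type 6 members passed, 10 with TPM as deposited, 0 with only the groups compared in the fit, 2 without replicate 2, and 3 to 5 with 1 library left out; in the AtY34 line 6, 0, 1 and 2 to 6 (only the groups compared, without replicate 2, and 1 left out). For heavy polysomes against total RNA, TPM as deposited gave 21 members in wild type, 20 of them higher (main 1, lower), 22 in the AtY34 line (main 0) and 31, all higher, over both lines (main 1, lower); only the groups compared, or no replicate 2, gave 0 in wild type and 0 over both lines. With 1 library left out that count over both lines was 1 to 2. Of all genes 763 passed as higher in wild type with TPM as deposited, 696 in the AtY34 line and 3494 over both (main 1, 1 and 31). As lower, 25 passed in wild type and 161 over both in the main fit. These were 2 and 82 with only the groups compared, and 9 and 48 without replicate 2. For light polysomes against total RNA over both lines, 6 passed as lower, 7 as higher with TPM as deposited, 1 with quantile normalization, 2 without replicate 2, and 2 to 6 with 1 library left out. Of all genes 49 passed as higher and 45 as lower there in the main fit. These were 1153 and 24 with TPM as deposited, 31 and 25 with quantile normalization, and 29 and 26 without replicate 2. Fits on fewer libraries have fewer degrees of freedom. Otherwise the cause was not tested. Of 549 repeats of member results past the threshold in the main fit, 0 changed sign and 134 lost the threshold. Member results not past it were not among these repeats, and some of them did change sign. For light polysomes against total RNA over both lines, 7 members were above 0 in the main fit and 25 with TPM as deposited. The PSAH ratio, not past its threshold, turned from -0.13 to 0.0228 without AtY34 light replicate 1 (range with 1 library left out from -0.24); the ratios past theirs remained so in every fit that left out 1 library. Deviations of samples with the same replicate number correlated by -0.177 to 0.194 over 45 pairs (median 0.029). This misses the level set for pairing (every pair over 0.1). The pairs joined groups both within and between lines, and pairs within a line were not examined apart. Of 18 libraries 10 had their closest library of another group under the same number. Replicate 2 held the highest green tissue sum and the highest plastid partner share in 6 of 6 groups. This is a hint from the data, not the design, of something shared under that number. The replicate block joined both lines under each number. With it the count changed from 6 to 5 for light polysomes against total RNA and in no other comparison. Unknown depth limits the low members PPD5, PSB28 and FNR2 most.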
